A study of Rattus norvegicus with 20 samples.

Results

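The miR-99, miR-100 and miR-125 families were described in the rat across 15 tissues and serum. Their members were taken by name from the deposited lists as the 6 precursors rno-mir-99a, rno-mir-99b, rno-mir-100, rno-mir-125a, rno-mir-125b-1 and rno-mir-125b-2, out of 444 precursors in all, with their 11 mature arms out of 577 mature miRNAs. Small RNA was sequenced from untreated, non-drinking male Long Evans rats at postnatal day 35. Whole brain hemispheres of 3 rats and serum of 3 rats were run individually. Each of the 14 other tissues (subcutaneous abdominal fat, heart, kidney, large intestine, liver, lung, hindlimb skeletal muscle, pancreas, skin, small intestine, spleen, stomach, testes and thymus) was 1 library made from pooled RNA of 3 rats. The question was where each miRNA is found in the body and how brain compares with serum. A pool averages its animals and has no replicate, so for a pool the interval given is a 95% Wilson interval, which covers counting error only.

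The miRNAs of these families are small regulatory RNAs cut from hairpin precursors. Each hairpin can give a 5p and a 3p arm, and an arm finds its target mRNAs mainly through its seed, bases 2 to 8. The miR-99/100 group is an offshoot of the ancient miR-10 family, and the miR-125 group descends from lin-4, the first miRNA found in worms. In mammals 1 member of each group sits beside a let-7 gene, and in the RefSeq annotation of the rat (GRCr8) these form 3 clusters. Mir99b, Mirlet7e and Mir125a lie together on chromosome 1. Mir100, Mirlet7a-2 and Mir125b1 lie on chromosome 8, within the span of the annotated host RNA Mir100hgl. Mir99a, Mirlet7c1 and Mir125b2 lie on chromosome 11. miR-125b is known for high levels in neurons, and miR-99a and miR-100 are known to target components of the mTOR pathway.

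The sequences below are from RefSeq (GRCr8), where 10 of the 11 mature arms matched by name, and are shown 5′ to 3′ with the seed in capitals, because the sums and shares given later follow the seeds. miR-100-5p and miR-99b-5p have 1 seed in common. Counted from 1 at the 5′ end, with the base of miR-100-5p first, they differ by A1C, U11A, A16C and U21C. miR-10a-5p of the wider miR-10 family has another seed.
miR-100-5p: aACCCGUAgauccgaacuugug
miR-99b-5p: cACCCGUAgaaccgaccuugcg
miR-10a-5p: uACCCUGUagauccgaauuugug
miR-125a-5p and miR-125b-5p are identical over their first 13 bases. miR-351-5p, which comes from another locus, has the miR-125 seed and is identical to miR-125a-5p over the first 8 bases.
miR-125a-5p: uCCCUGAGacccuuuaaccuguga
miR-125b-5p: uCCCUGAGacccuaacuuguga
miR-351-5p: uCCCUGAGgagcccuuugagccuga
Both mir-125b hairpins give the same 5p arm, so only the 3p arms tell the loci apart, and these have different seeds.
miR-125b-1-3p: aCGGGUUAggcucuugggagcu
miR-125b-2-3p: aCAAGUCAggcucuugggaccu
let-7e-5p, from the hairpin between mir-99b and mir-125a, is shown as the partner of that cluster.
let-7e-5p: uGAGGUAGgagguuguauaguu

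Reads assigned to precursors totalled 1204552, 570652 and 388275 in the brain libraries, 7556, 10862 and 7930 in the serum libraries, and 162080 to 3685761 in the pools. Levels are given as RPM, the reads per 1000000 reads of the same list, and a serum library cannot resolve values under about 276 to 397 RPM, the level of 3 reads. Known markers were listed as 33 pairs of tissue and marker. Some markers were listed for more than 1 tissue, and such a marker can be highest in only 1. Of these pairs, 18 were highest in their own tissue and 25 were highest or second, among the 15 tissues and serum. The exceptions included the pancreas library, in which the pancreatic mir-216a and mir-217 had 0 reads while mir-122, the hepatocyte miRNA, stood at 14862 RPM. Liver had 14726 RPM of mir-122 and the next pool 8.17 RPM. Medians and shares over precursors used the 295 with at least 10 counts in 3 or more of the 20 libraries. The 3 hemispheres or the 3 serum libraries can meet that filter alone, whereas a single pool cannot. Values of the 295 in brain are thus set in part by the filter. On the scale of library totals the median of these 295 precursors lay 1.72 above its tissue median in brain on the log2 scale. That median shift was 0.71 with TMM scaling and 0 with DESeq2 size factors, so brain levels are read against it.

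By RPM, 4 of the 6 precursors were highest in brain (42% of the 295 precursors were), mir-99b was highest in lung and mir-100 in testes, and 5 of the 6 were lowest in thymus (7.46% of the 295 were). The 42% is set in part by the filter for the 295. Thymus held the same 5 lowest values with TMM scaling and with DESeq2 size factors, whereas the number highest in brain fell to 3 with TMM and to 0 with DESeq2 size factors. mir-99b in lung and mir-100 in testes were highest under all 3 scalings. Less the median of the 295 on the scale of totals, log2 levels in brain were modest. They were 1.14 for mir-125b-2, 0.73 for mir-125a, 0.71 for mir-125b-1, 0.34 for mir-100, 0.30 for mir-99b and -0.55 for mir-99a. Between 43.4% (mir-99a) and 63.4% (mir-125b-2) of the 295 precursors lay lower in brain than the member. Of the 14 pairs of neighbours in each order of tissues by RPM, the intervals or hemisphere ranges overlapped in 11 for mir-99a, 10 for mir-125b-1, 9 each for mir-99b, mir-100 and mir-125a, and 8 for mir-125b-2. In bulk tissue, fewer cells of a type and less of the RNA per cell cannot be told apart.

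**Figure D1:**
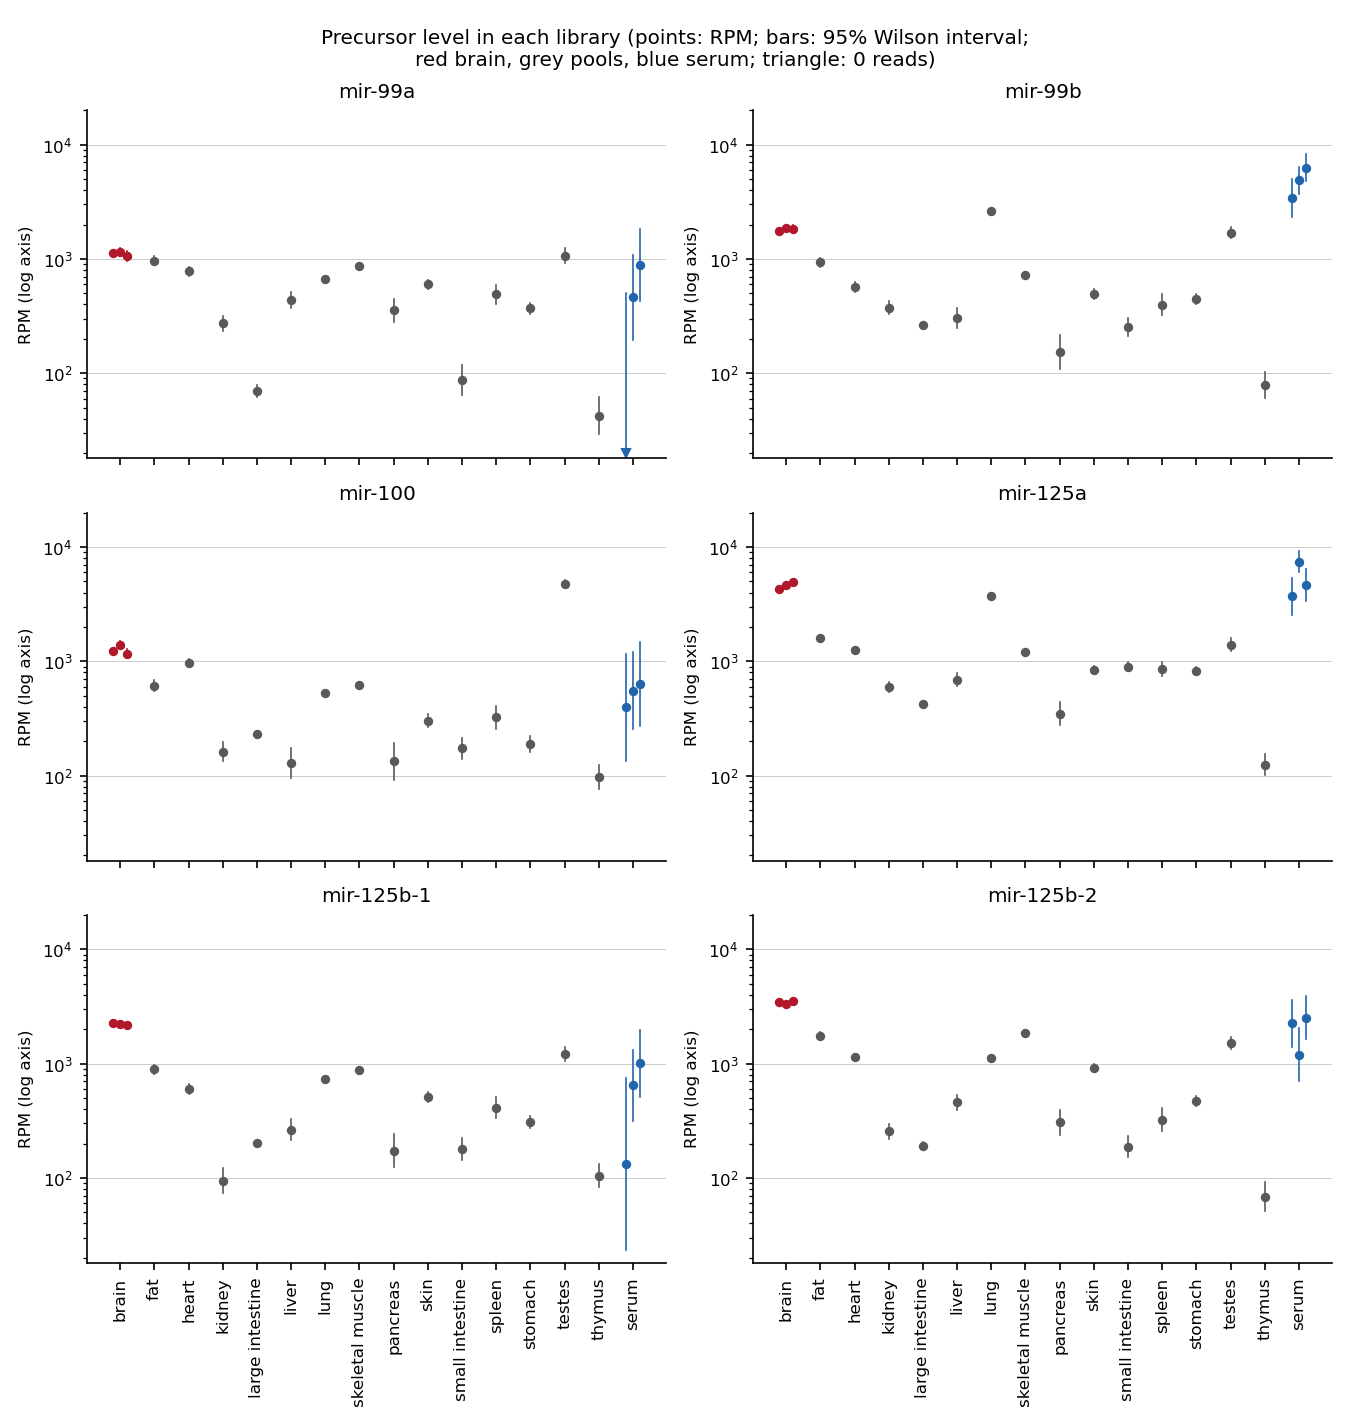
Level of each precursor in RPM (vertical log axis) in the 3 brain libraries (red), the 14 pools (grey) and the 3 serum libraries (blue), with points for the values and bars for 95% Wilson intervals. mir-100 stands out in testes at 4788 RPM, mir-99b and mir-125a are high in brain, lung and serum, and 5 of the 6 panels have their lowest tissue in thymus.

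mir-100 had the widest single-tissue excess. It was at 4788 RPM in testes (776 reads, interval 4463 to 5136), 3.78 times the next tissue. That was brain, where the 3 hemispheres gave 1237, 1398 and 1164 RPM, or 1266.5 ± 120 (SD, n = 3). Heart followed at 964 RPM, and the lowest values were 128 RPM in liver and 97.2 RPM in thymus, whose intervals overlap. On the log2 scale mir-100 lay 3.98 above its tissue median in testes, where the median of all 295 precursors was 0.33, and 3.42 above it with DESeq2 size factors.

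mir-99a, the close relative of mir-100, did not show this. It was at 1117, 1144 and 1064 RPM in brain, 1067 in testes (920 to 1239), 964 in fat and 869 in skeletal muscle, and neighbours in this order overlapped. The 3 lowest tissues were small intestine at 87.5 RPM, large intestine at 69.7 and thymus at 42.5 (29.4 to 61.4). In brain mir-99a lay 1.17 above its tissue median, which was less than the median precursor, by 0.55 on the log2 scale. With DESeq2 size factors it lay 0.48 below its tissue median in brain.

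mir-99b was at 2650 RPM in lung (2585 to 2715), above the 3 brain libraries at 1744, 1854 and 1834 RPM. Testes came next at 1703 RPM (1514 to 1916), overlapping brain. It then dropped to 940 RPM in fat and 719 in skeletal muscle, and to 79.0 RPM (60.2 to 104) in thymus. Its lung value was 2.56 above the tissue median, against 0.24 for the median of the 295 precursors in lung.

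mir-125a, the cluster neighbour of mir-99b, was the most abundant of the 6 in brain, at 4322, 4693 and 4945 RPM. Lung, at 3708 RPM (3632 to 3786), was the only pool near brain, and fat followed at 1600 RPM and testes at 1401. Thymus was lowest at 124.5 RPM. The profiles of mir-125a and mir-99b over the 15 tissues correlated with r of 0.94, the highest value among the 15 pairs of members and without a test, since tissues share library composition. With DESeq2 size factors lung became the highest tissue of mir-125a, at 1.68 above the tissue median against 0.57 in brain.

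mir-125b-1 and mir-125b-2 were highest in brain by RPM, at 2267, 2206 and 2163 RPM and at 3463, 3301 and 3513 RPM. The next tissue was testes for mir-125b-1, at 1209 RPM (1052 to 1391), and skeletal muscle for mir-125b-2, at 1860 RPM (1786 to 1937). mir-125b-1 was lowest in kidney, at 94.8 RPM, with an interval that overlaps that of thymus at 105 RPM. mir-125b-2 was lowest in thymus at 68.3 RPM. With DESeq2 size factors testes and skeletal muscle became the highest tissues of mir-125b-1 and mir-125b-2. The estimated counts of the pair share reads of the common 5p arm: without their 3p reads they summed to between 1.37 and 2.06 times the mature miR-125b-5p count over the 17 tissue libraries, so the pair was not added up.

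Summed by seed in the mature list, miR-99a-5p, miR-99b-5p and miR-100-5p came to 4237, 4553 and 4064 RPM in the brain libraries. They came to 11689 RPM in testes, 4056 in lung and 234 in thymus, and the median over the pools was 1277 RPM. Within that sum miR-100-5p alone was at 7547 RPM in testes, 5.76 times the brain mean. miR-99a-5p, at 1524 RPM in testes, was above each hemisphere (1152, 1180 and 1044 RPM), unlike its precursor. The mature list held 97782 reads in testes against 162080 precursor reads, and 1019681 against 1204552 in brain replicate 1. RPM of the mature list in testes is thus raised relative to the precursor list. The 5p and 3p arms of mir-99a together came to 0.87 of its precursor reads in testes and to 0.89, 0.90 and 0.85 in the hemispheres. A similar part of its hairpin reads was thus counted in the mature list, which does not measure the use of 5p against 3p. miR-99b-5p was at 2798 RPM in lung and 2618 RPM in testes, with overlapping intervals. miR-125a-5p and miR-125b-5p came to 7666, 8058 and 8417 RPM in brain, 5341 in lung and 259 in thymus, with a pool median of 1567 RPM. The 11 arms together made up 1.46% of mature reads in brain and 1.93% in serum on average. The serum libraries held 4887, 7022 and 5427 mature reads, a smaller part of their precursor reads than in brain. Their percentages ran from 1.44% to 2.23%, and these means do not rank serum above brain.

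Shares within a library do not depend on how libraries are scaled, and the 5p arms compared are 22 to 24 bases long where their sequence was matched. Among reads of the 3 mir-99/100 precursors, mir-100 took 28.7% to 31.8% in the brain libraries. It took 63.3% in testes (60.6 to 66.0) and 13.9% in lung (13.2 to 14.6). mir-99b took 42.2% to 45.1% in brain, 68.8% in lung and 22.5% in testes. The composition therefore ran in opposite ways in lung and testes although both pools were rich in the group.

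mir-100 and mir-99a, which differ in their genomic cluster, exchanged places between tissues. Of their summed reads mir-100 was 81.8% in testes (79.2 to 84.1), 76.7% in large intestine (74.1 to 79.1), 69.6% in thymus (59.5 to 78.0) and 66.4% in small intestine (57.6 to 74.2). The hemispheres lay at 52.3% to 55.0%. It was 22.6% in liver (17.2 to 29.1) and 27.3% in pancreas (19.5 to 36.8). Liver and pancreas, the pair of pools rich in mir-122 as given earlier, had the lowest 2 shares of mir-100, and the part of liver RNA in the pancreas value was not tested.

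**Figure D2:**
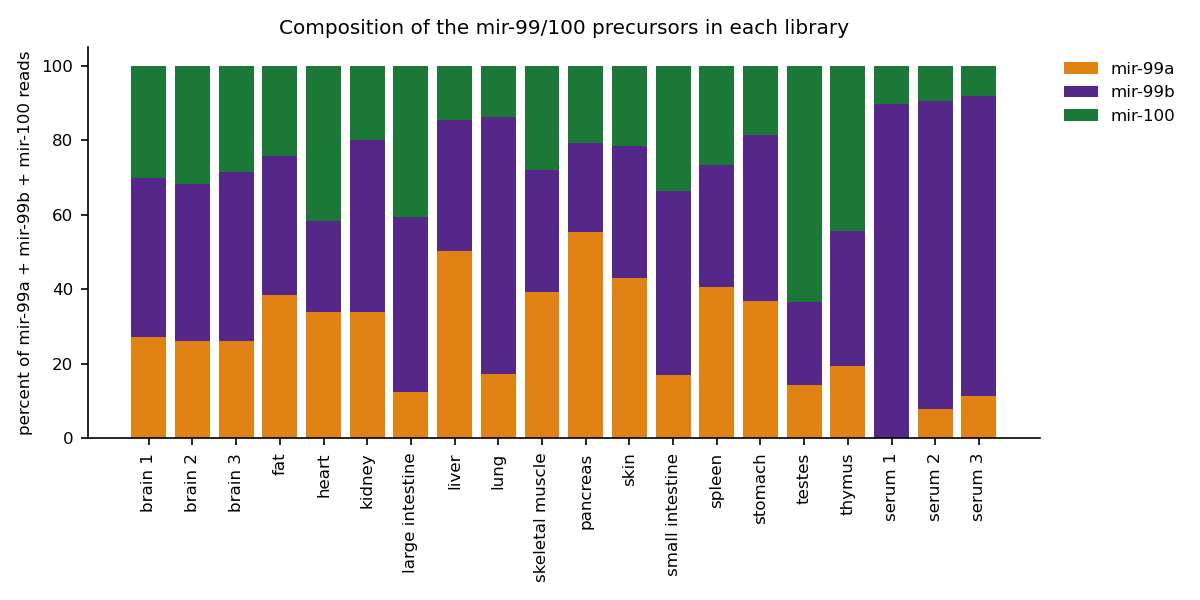
Percent of the summed mir-99a, mir-99b and mir-100 reads that each precursor took in each of the 20 libraries, as stacked bars from 0 to 100%. mir-100 (green) fills most of the testes bar at 63.3%, and mir-99b (purple) most of the lung bar at 68.8% and of the serum bars at 80.6% to 89.7%.

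In serum the composition moved to mir-99b, at 89.7%, 82.8% and 80.6% of the 3 precursors. mir-100 was 10.3%, 9.38% and 8.06% and mir-99a 0, 7.81% and 11.3%. These serum shares rest on 29, 64 and 62 reads. No serum library overlapped the brain libraries in the share of mir-99b, and the difference of brain minus serum, -41.1 percentage points, gave p = 0.10 in an exact two-sided permutation test of 3 against 3 samples, which is the smallest p this design allows (0.13 after Benjamini-Hochberg adjustment over 13 shares tested). All serum values of mir-99b lay above every one of the 17 tissue libraries.

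The clearest contrast between brain and serum lay inside the mir-99b, let-7e and mir-125a cluster. let-7e, a member of the let-7 family of differentiation-linked miRNAs, had 14759, 5121 and 4502 reads in the hemispheres and 2, 4 and 1 reads in the serum libraries. In the same serum libraries mir-99b had 26, 53 and 50 reads and mir-125a had 28, 81 and 37. let-7e was thus at or near the limit of detection in serum while its neighbours on both sides were counted in every library.

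As a share of mir-99b and let-7e reads, mir-99b was 12.5%, 17.1% and 13.7% in brain and 92.9%, 93.0% and 98.0% in serum. In the 14 pools it ranged from 8.03% in heart to 35.1% in testes, so every serum library lay above every tissue. mir-125a was 26.1%, 34.3% and 29.9% of mir-125a and let-7e in brain, 93.3%, 95.3% and 97.4% in serum, and 13.5% (kidney) to 37.3% (small intestine) in the pools. The differences of brain minus serum, -80.2 and -65.2 percentage points, both had the smallest exact permutation p of 0.10 that 3 against 3 samples allow, and 0.13 after adjustment over 13 shares. let-7 family members differ by few bases, and how the authors' counting divided reads among them is not given in the sources used here.

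**Figure D3:**
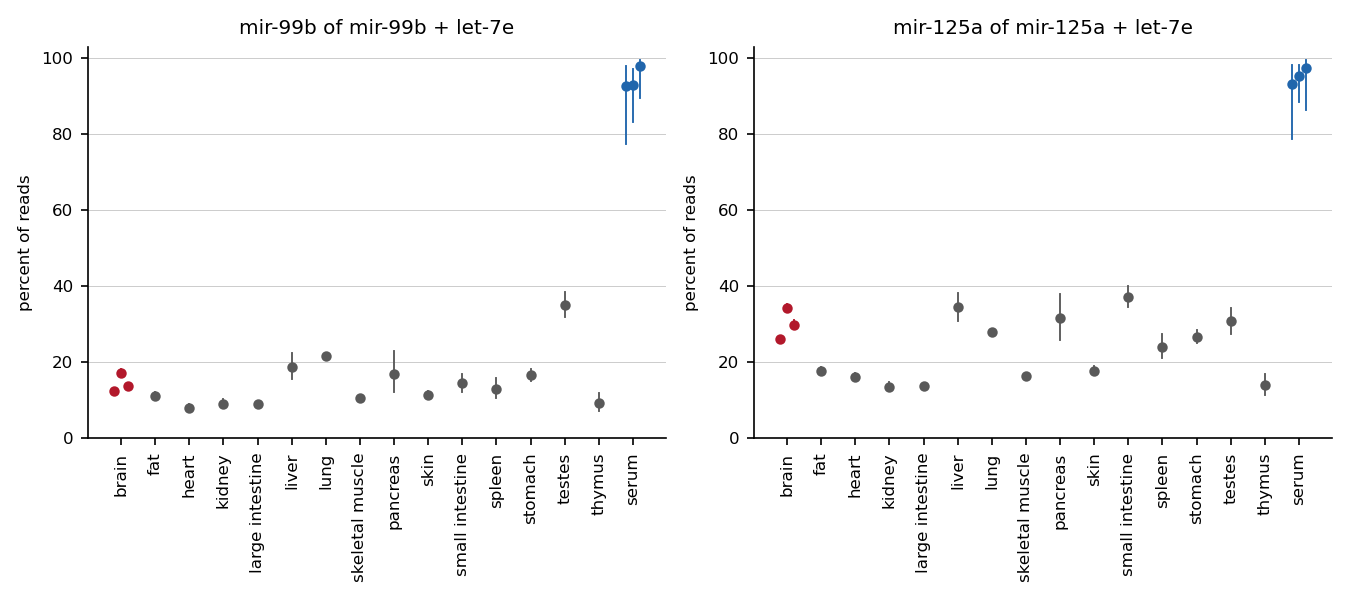
Percent of reads taken by mir-99b (left) and mir-125a (right) when each is set against let-7e of the same cluster, per library with 95% Wilson intervals (red brain, grey pools, blue serum). The serum libraries sit at 92.9% or more in both panels and the tissues at 37.3% or less.

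In the other clusters brain and serum lay closer together. mir-99a was 4.78% to 5.61% of mir-99a and let-7c-1 in brain and 0 to 3.80% in serum. mir-100 was 8.25% to 9.97% of mir-100 and let-7a-2 in brain and 11.5% to 15.8% in serum. The shares themselves did not overlap, with differences of brain minus serum of 3.24 and -3.85 percentage points. Both had the smallest p of 0.10 in the exact permutation test (0.13 adjusted over 13 shares). Serum rested on 0, 5 and 7 reads of mir-99a and 3, 6 and 5 of mir-100. The serum intervals of mir-100 (5.52 to 37.6, 5.40 to 23.0 and 5.32 to 25.5) all covered the brain shares. For mir-99a only that of serum replicate 3 did (1.85 to 7.64). The exception among tissues was testes, where mir-100 was 45.1% of mir-100 and let-7a-2, against a pool median of 6.13%.

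Within the miR-125 seed, miR-125a-5p was 64.3%, 66.6% and 67.6% of miR-125a-5p and miR-125b-5p in brain. It was 84.2% in kidney (80.3 to 87.4), 83.8% in small intestine (80.4 to 86.9) and 82.0% in lung (81.3 to 82.7). It was lowest in skeletal muscle at 57.0% (55.0 to 58.8), where miR-125b-5p was nearly as abundant. In serum it was 98.2%, 94.6% and 81.3%, on 28.5, 83.5 and 45.5 estimated reads, all above brain (exact permutation p = 0.10, the smallest possible, and 0.13 adjusted over 13 shares).

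The 3p arms showed which mir-125b locus was read. miR-125b-2-3p was 75.5%, 76.5% and 72.7% of both 3p arms in the hemispheres and between 75.1% and 81.9% in stomach, lung, skin, fat, skeletal muscle and heart. It was 91.2% in liver (52 of 57 reads) and 100% in pancreas (27 of 27 reads, interval 87.5 to 100), the same pair of pools that hold mir-122, and kidney, at 86.2% (69 of 80 reads, 77.0 to 92.1), overlapped liver (81.1 to 96.2). Testes, at 61.5% (54.2 to 68.3), and small intestine, at 24 of 40 reads (44.6 to 73.7), lay lower. It was 47.0% in large intestine (42.4 to 51.7), 48.6% in spleen (17 of 35 reads) and 24.3% in thymus (9 of 37 reads, 13.4 to 40.1). In thymus miR-125b-1-3p was thus the more abundant 3p arm, and in spleen and large intestine the arms differed by less than counting error. Serum, at 93.3%, 71.4% and 85.7% on 15, 14 and 14 reads, overlapped brain (exact permutation p = 0.40).

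**Figure D4:**
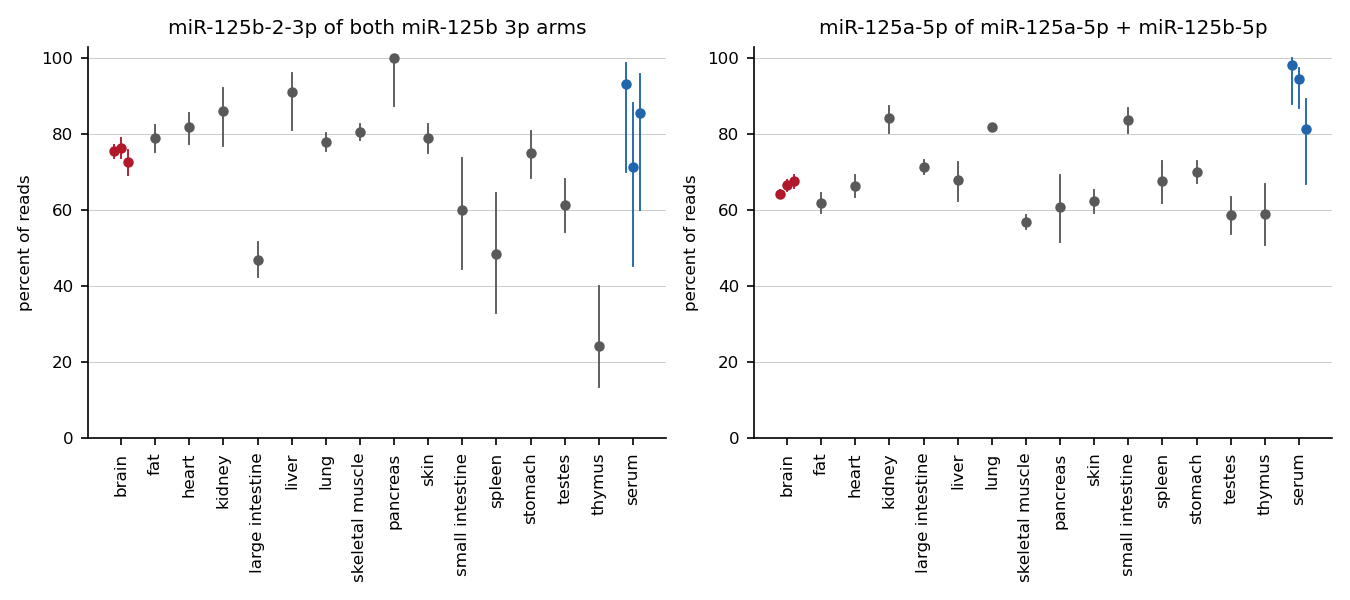
Left, percent of miR-125b 3p reads that came from the mir-125b-2 locus. Right, percent of miR-125a-5p among miR-125a-5p and miR-125b-5p reads. Points are libraries and bars 95% Wilson intervals (red brain, grey pools, blue serum). Thymus is lowest on the left at 24.3% and kidney the highest pool on the right at 84.2%.

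The hairpins also differed in how their arms were used. Those of Mir100 and Mir125b1 are given here from RefSeq (GRCr8) with both mature arms in capitals, as a hairpin with almost no 3p reads and one with many.
Mir100: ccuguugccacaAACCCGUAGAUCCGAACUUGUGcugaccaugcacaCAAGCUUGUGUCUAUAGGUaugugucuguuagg
Mir125b1: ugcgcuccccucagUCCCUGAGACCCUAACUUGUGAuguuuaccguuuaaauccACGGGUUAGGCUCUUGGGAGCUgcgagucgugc
miR-100-3p had 1 read in brain replicate 2 and 0 in the other 19 libraries, against 2413 reads of miR-100-5p in brain alone. The 3p arm was 2.33% to 2.84% of mir-99a reads in brain, 1.30% to 1.76% of mir-99b reads and 0.69% to 0.95% of mir-125a reads. Among the pools the 3p share of mir-99b was 14.9% in thymus (7 of 47 reads, 7.41 to 27.7), above the pool median of 1.57%.

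By contrast, 3p reads made up a large part of the mir-125b hairpins. miR-125b-2-3p was 40.1%, 39.7% and 37.8% of the mir-125b-2 count in brain, 50.2% in skeletal muscle (48.2 to 52.2) and 20.0% in thymus. miR-125b-1-3p was 19.8%, 18.3% and 23.1% of the mir-125b-1 count in brain, 40.6% in thymus (29.8 to 52.4) and 5.75% in liver. In thymus the order of these shares was the reverse of that in brain and skeletal muscle. Both hairpin counts hold reads of the arm common to the pair. Less their 3p reads, mir-125b-1 and mir-125b-2 had 41 and 36.0 reads in thymus and 2189 and 2500.75 in brain replicate 1. In skeletal muscle they had 830 and 1166.75. The order of the shares thus largely restates the ratio of the 3p arms, and arm use of each hairpin cannot be read from these shares. In serum the 3p share of mir-125b-2 was 82.4%, 76.9% and 60.01%, all above brain, on 17, 13 and 20 reads of the hairpin, and no test was made at that depth.

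Brain and serum were compared with edgeR's quasi-likelihood test over the 235 precursors that reached 10 counts in 3 or more of the 6 libraries. Of the 6 members, 4 were called higher in brain (44.7% of all tested precursors were) and 1 lower (18.7% were), with a median log2 fold change of 0.93 over the members against 2.15 over all tested. In RPM, 4 of 6 had every brain library above every serum library (65.5% of tested precursors did) and 1 of 6 every brain library below (20.9% did). mir-99a, mir-100 and mir-125b-1 had fewer than 10 reads in each serum library and entered the test through brain alone, so no weight is put on the number of members called. Most of the other tested precursors also needed all 3 hemispheres to pass. When any 1 hemisphere was left out, 68 of the 235 stayed, so the median over all tested is set in part by the filter.

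mir-99b was lower in brain than in serum, at 1744, 1854 and 1834 RPM against 3441, 4879 and 6305 RPM. Its log2 fold change of brain over serum was -1.54 (SE 0.23, adjusted p = 8.7e-05), and that of miR-99b-5p was -1.41 (SE 0.37, adjusted p = 0.0013). The size depended on which precursors set the scale. Over precursors with at least 10 counts in every library, which keeps 51 in place of 235, it was -0.32 (adjusted p = 0.26), and with DESeq2 size factors -1.77 (adjusted p = 3.1e-06). Without brain replicate 1 or brain replicate 3, when 68 precursors stayed in the test, it was -0.57 and -0.56 (adjusted p = 0.059 and 0.061). With 2 libraries required in place of 3, 236 and 263 precursors stayed, and adjusted p was 0.0012 and 2.8e-05.

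mir-125a did not pass the test. It was at 4322, 4693 and 4945 RPM in brain and 3706, 7457 and 4666 RPM in serum, which overlap, and its log2 fold change was -0.35 (SE 0.32, adjusted p = 0.33). Without serum replicate 3 it was -0.61 (adjusted p = 0.041), without serum replicate 2 it was 0.18, and over precursors with at least 10 counts in every library it was 0.86 (adjusted p = 0.0084), so its direction was not settled by these data.

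The members called higher in brain were mir-125b-1 at 1.75 (SE 0.37, adjusted p = 0.0012), mir-99a at 1.16 (SE 0.47, adjusted p = 0.048), mir-100 at 1.13 (SE 0.32, adjusted p = 0.0082) and mir-125b-2 at 0.73 (SE 0.24, adjusted p = 0.020), as log2 fold changes of brain over serum. Serum reads were few, at 1, 7 and 8 for mir-125b-1, 0, 5 and 7 for mir-99a, 3, 6 and 5 for mir-100 and 17, 13 and 20 for mir-125b-2. The call of mir-99a was lost without serum replicate 1 (adjusted p = 0.11), without serum replicate 2 (0.051), with DESeq2 size factors (0.082) and, with 2 libraries required, without brain replicate 1 (0.059) or 2 (0.072). That of mir-125b-2 was lost without serum replicate 2 (adjusted p = 0.10) and with DESeq2 size factors (0.088). All of these changes are smaller than that of the median tested precursor, 2.15. That median is itself set in part by the filter, which most tested precursors passed through the hemispheres, so the comparison does not characterize the members.

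Among mature arms, 10 of 11 were tested, of which 3 were called higher in brain (52.8% of 212 tested were) and 1 lower (14.2% were). The 3 called higher had fewer than 10 reads in each serum library and, like the 3 precursors above, entered the test through brain alone. miR-125b-5p was at 2737, 2691 and 2728 RPM in brain against 102, 641 and 1566 RPM in serum, the latter on 0.5, 4.5 and 8.5 estimated reads, with a log2 fold change of 2.44 (SE 0.52, adjusted p = 8.8e-05). miR-99a-5p, with 0, 5 and 5 serum reads, was at 1.40 (SE 0.50, adjusted p = 0.014), and miR-100-5p, with 3, 4 and 5, at 1.34 (SE 0.44, adjusted p = 0.0082). Both lost their calls without brain replicate 3 with 2 libraries required, with adjusted p of 0.11 and 0.098. miR-99b-5p lost its call without the filter on low counts, at -0.52 (adjusted p = 0.19), and over arms that reached 10 counts in every library (adjusted p = 0.13). It also lost it without brain replicate 1 or 2 (adjusted p = 0.10 and 0.12), when 50 arms stayed in the test. With 2 libraries required, miR-99b-5p kept its call whichever hemisphere was left out (-1.44 to -1.25, adjusted p = 0.017 to 0.023). miR-125a-5p, at -0.18 (adjusted p = 0.70), was called higher in brain without the filter, at 0.71 (adjusted p = 0.040).

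The 3p arms of mir-125b behaved differently from their 5p arm in that comparison. miR-125b-2-3p was at 1639, 1541 and 1576 RPM in brain and 2865, 1424 and 2211 RPM in serum, which overlap, with a log2 fold change of 0.06 (SE 0.38, adjusted p = 0.90). It was called higher in brain without brain replicate 1 (0.83) or 2 (0.87), without the filter (adjusted p = 0.021) and over arms that reached 10 counts in every library (adjusted p = 0.0035). With 2 libraries required, it was not called whichever hemisphere was left out (0.04 to 0.21, adjusted p = 0.68 to 0.95). miR-125b-1-3p had 0.86 (SE 0.55, adjusted p = 0.15), and 1.73 without the filter (adjusted p = 0.0038). miR-99a-3p and miR-99b-3p had 0 reads in all serum libraries, and their brain means of 30.3 and 29.6 RPM lay under the 173 RPM that 3 reads over the pooled serum libraries would give, so no difference was detectable at this depth.

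**Figure D5:**
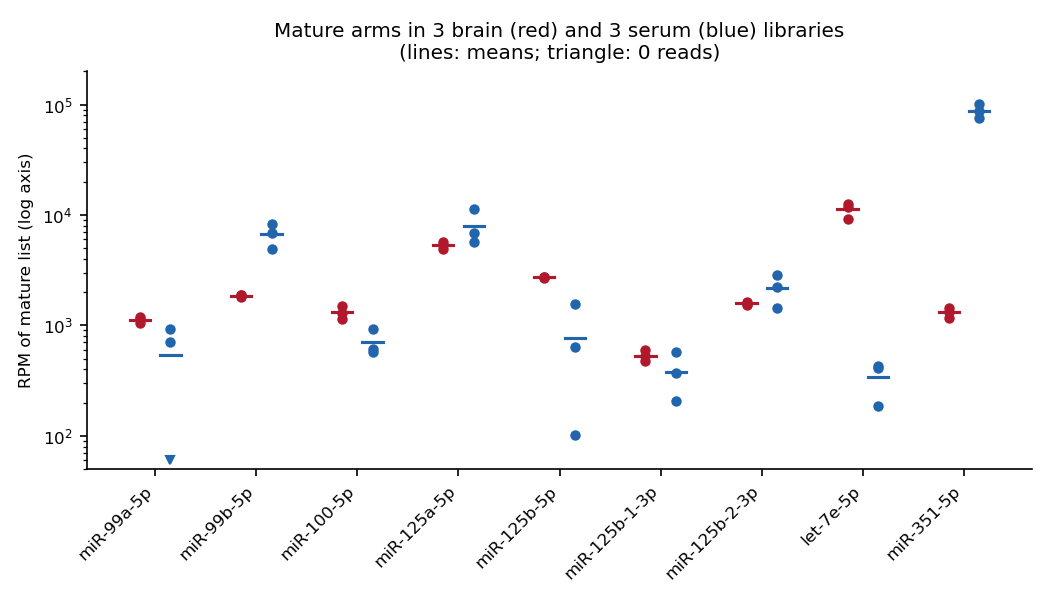
Level in RPM of the mature list (vertical log axis) of 7 member arms, let-7e-5p and miR-351-5p in the 3 brain (red) and 3 serum (blue) libraries, with lines at the means and a triangle for 0 reads. miR-99b-5p and miR-351-5p lie higher in serum, miR-125b-5p and let-7e-5p higher in brain, and miR-125a-5p overlaps.

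The seed of miR-125 was carried in serum mainly by another miRNA. miR-351-5p, which has the same seed, was at 87784, 75904 and 100977 RPM in serum, a mean of 8.82% of mature reads, and at 1171, 1312 and 1447 RPM in brain. Its log2 fold change of brain over serum was -5.58 (SE 0.46, adjusted p = 1.7e-13), whereas the sum of miR-125a-5p and miR-125b-5p had means of 8047 RPM in brain and 8702 RPM in serum. In the pools miR-351-5p was highest in skeletal muscle at 7930 RPM, where that sum was 3160 RPM. It also lay above the sum in fat (6546 against 3827 RPM), testes (6719 against 3835), lung and skin, so this was not particular to serum. In kidney the intervals overlapped. It lay below the sum in brain, heart, liver, pancreas, spleen, stomach, thymus, small intestine and large intestine. The wider miR-10 family also differed more between brain and serum than the member precursors did. Its log2 fold changes were -4.93 for mir-10a (SE 0.47, adjusted p = 2.3e-06) and -3.78 for mir-10b (SE 0.45, adjusted p = 1.5e-05). Serum lay within the range of the pools for both. That range was 3492 RPM in testes to 159309 in kidney for mir-10a, and 1110 in pancreas to 232046 in testes for mir-10b. Brain means were 4182 and 7767 RPM. Of the let-7 partners, let-7e, which also entered the test through brain alone with 2, 4 and 1 serum reads, was at 5.25 (SE 0.41, adjusted p = 3.6e-07), let-7a-2 at 1.64 (SE 0.31, adjusted p = 0.00053) and let-7c-1 at -0.04 (SE 0.28, adjusted p = 0.89).

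When the hemispheres were summed to 1 brain library and set against the 14 pools, 0 of the 6 members passed edgeR's test (4.88% of 246 precursors did). None had an unadjusted p under 0.05 either, and none was called by DESeq2 or with the hemispheres as 3 libraries. The log2 fold changes of brain over the pools ran from 0.09 for mir-100 (SE 1.495) to 1.30 for mir-125b-1 (SE 0.85, adjusted p = 0.44), with 1.27 for mir-125b-2, 1.09 for mir-125a, 0.51 for mir-99b and 0.21 for mir-99a. The spread in this fit is that between tissues, and the single brain library was assumed to vary like them, so an approximate 95% interval for mir-125b-1 ran from -0.37 to 2.97.

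Profiles over the 15 tissues, as log2 of RPM plus 1, were compared with those of 289 other precursors by Pearson's r, as a description without a test. mir-151 was the most similar precursor to mir-99b, mir-125a, mir-125b-2 and mir-100, with r of 0.93, 0.90, 0.90 and 0.79. mir-99a was most like mir-195 and mir-497, at 0.91 and 0.90, and mir-125b-1 most like mir-676, at 0.90. let-7c-1 was among the 3 most similar to mir-99b and mir-125a, at 0.88 and 0.87. mir-100 was followed by mir-34b and mir-34c, at 0.79 and 0.77, which are abundant in testes.

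Among the members themselves, mir-125b-1 and mir-125b-2, whose counts share 5p reads, correlated with r of 0.94, and mir-99a and mir-125b-2 of the same cluster with 0.92. mir-100 and mir-125b-1, also of 1 cluster, correlated with 0.86. The lowest value was 0.69 between mir-100 and mir-125a. With TMM scaling they were lower, at 0.89, 0.86, 0.76 and 0.49 for the same pairs. Pairs from different clusters also lay high on the scale of totals. mir-99b correlated with mir-125b-2 at 0.87 and with mir-125b-1 at 0.86, and mir-125a with mir-125b-2 at 0.86. These were 0.77, 0.72 and 0.75 with TMM scaling, so high values were not particular to pairs of the same cluster.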

How the data were processed

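Small RNA of 20 rat libraries was sequenced by the authors on a MiSeq after TruSeq Small RNA preparation. After trimming of base calls below phred 20, Bowtie placed the reads on Rn5, and Partek Flow and Strand NGS were used. Versions are not given in the sources used here. The deposited values are estimated counts (expected counts, not normalized) in 3 lists that count the same reads: 444 hairpins and 577 mature arms of miRBase 21, and 388 entries of RefSeq. Groups came from the sample titles. The members and lists were chosen with earlier results of these data known.

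RPM was computed within each list. Profiles were log2 of RPM plus 1, with brain as the mean of 3, centred on the median of 15 tissues. For tests, counts were rounded and edgeR 4.0.16 (R 4.3.3; quasi-likelihood, TMM, at least 10 counts in at least 3 libraries) was run over all features with Benjamini-Hochberg adjustment at 0.05 and tested on simulated data. DESeq2 1.42.0 served as an alternative. Shares were compared by exact permutation tests over samples, and arm shares needed 20 reads. Intervals (Wilson, 95%) and floors of 3 reads cover counting error only. Always named were the members, their arms, their let-7 neighbours, mir-10a, mir-10b and mir-351, and the 3 most similar precursors per member. Replicates of a group differed by more than sampling noise. RefSeq sequences were matched by name, and no coordinates are given because Rn5 and GRCr8 differ.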

Additional observations from a re-analysis of the deposited data

How the results depend on the processing

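Serum depth, 7556 to 10862 precursor reads per library, limited the comparisons of brain with serum. Of the members' log2 fold changes between brain and serum under other scalings, filters, tools and left-out libraries, 54 of the precursors and 60 of the arms kept their direction and their side of the threshold, 11 and 7 lost a call, 1 and 5 gained one, and 6 and 10 changed sign. The number of members highest in brain was 4 with totals, 3 with TMM and 0 with DESeq2 size factors. With the latter mir-99a in brain lay at -0.48 relative to its tissue median. Requiring at least 10 counts in every library left 26 precursors higher and 20 lower in brain than serum and 14 and 12 mature arms, because fewer features were tested. Leaving out 1 library at a time gave 29 to 102 precursors higher and 25 to 43 lower, and 19 to 101 mature arms higher and 17 to 29 lower. The low ends came from leaving out a hemisphere, where features rich in brain alone no longer reach 3 libraries. With 2 libraries required, a filter chosen after seeing the data, these were 99 to 102 and 40 to 44 precursors and 73 to 121 and 28 to 30 mature arms, the 73 without brain replicate 3. For brain against the pools, edgeR called 12 higher and 0 lower (15 lower at an unadjusted p under 0.05). DESeq2 called 22 and 28, edgeR without a filter 44 higher, and with the hemispheres as 3 libraries 71 and 55. Leaving out a hemisphere gave 10 to 12 higher and 0 lower.

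mir-125a changed sign between brain and serum without a filter (0.18), with at least 10 counts in every library (0.86) and across left-out libraries (-0.61 to 0.64). So did miR-125a-5p (0.71, 0.80 and -0.36 to 0.67, and -0.26 to 0.0070 with 2 libraries required, 0.0070 being without brain replicate 1). miR-125b-2-3p was at -0.22 and -0.20 with DESeq2 size factors and its Wald test and at -0.013 to 0.87 across left-out libraries. mir-100 in brain against the pools was at -0.023 with the hemispheres as 3 libraries. The cause of these changes was not tested.

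Brain and serum came from the same 3 rats in the study's account, but no label says that a replicate number marks a rat. The numbers were therefore not treated as pairs. Deviations of same-numbered samples correlated at 0.10, -0.11 and -0.08 over 75 precursors. With so few serum reads and 3 samples per group, these correlations cannot decide whether the numbers mark rats. With the replicate block, 97 precursors were higher and 44 lower in brain, and 95 and 30 mature arms, and miR-99a-5p lost its call (1.44, adjusted p = 0.057). Only the samples numbered 1 correlated best with their own number. Of the 18 most similar precursors named, 15, 17, 15 and 12 stayed with TMM, with 10 RPM added, without the pancreas pool and without brain.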
